A study of Drosophila melanogaster with 5 samples.

Results

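The pericentromeric ends of the chromosome arms and the small chromosome 4 held 325 of the 2263 regions at which MLE was called in Drosophila melanogaster female embryos. The regions were found by merging the peaks of all 5 libraries that shared at least 1 bp. A merged region was kept when it began at or beyond 20.5 Mb on 2L or X or 25.1 Mb on 3L, when it began below 3 Mb on 2R or 3R, or when it lay anywhere on chromosome 4 (dm6 assembly). The rule used position alone and no signal, so calls, widths and signal ranks were not used in the choice. It gave 44 regions on 2L, 48 on 2R, 48 on 3L, 62 on 3R, 97 on X and 26 on chromosome 4, and 1417 other regions lay on the rest of these arms.

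MLE, also called Maleless, unwinds RNA as part of the complex that equalises X-linked expression between the sexes in flies. It was mapped by CUT&RUN, in which a nuclease tethered to an antibody releases the bound DNA. The antibody was raised in rat. The clampRNAi group was 1 library of embryos aged 0-2 h whose mothers carried MTD-GAL4, a driver active in the female germ line, and a hairpin against CLAMP (UAS-CLAMPRNAi[val22]), a GA-binding zinc finger protein supplied by the mother. Both control groups came from mothers in which MTD-GAL4 drove a hairpin against GFP, with 2 libraries at 2-4 h, after the embryo's own genome takes over from maternal products, and 2 libraries at 0-2 h, before it does. All embryos of all groups were female, from crosses in which meiotic drive leaves X-bearing sperm. Each library pooled embryos of several egg-layings and crosses. Nothing in the labels says that the replicates came from separate crosses, so their spread may be partly technical.

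Pericentromeric sequence is packaged as heterochromatin, a compact state marked by methylated histone H3 lysine 9 and bound by HP1. It is rich in transposons and satellite DNA, holds few genes, and many of those genes are very long. It also carries tandem arrays of near-identical genes, the ribosomal RNA genes of X among them, and the histone gene cluster lies close to the pericentromere of 2L. Chromosome 4 is largely heterochromatic yet dense in active genes, and the protein POF binds along it. In these repeats a sequenced fragment can match several copies, and how the study placed such fragments is not given in the sources used here.

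The chosen territory spanned 16.3 Mb, 12.2% of the main arms. It held 31.8 protein-coding genes per Mb, against 114 per Mb in the rest of the arms, and 52.3% of its bases lay inside annotated genes, against 71.9%. Its zones were unlike each other: gene density was 0.667 per Mb on 3R, 4.67 on 2R and 5.07 on 3L, and it was 45.1 on X, 60.6 on chromosome 4 and 90.3 on 2L, where 111 histone genes were counted.

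Read depth is unknown for all lists. The signal per peak is the authors' own and was ranked inside each list only. Maximum signals are printed as given, on scales that cannot be compared between lists. Lists held 370 to 1589 peaks over all contigs. The list of 2-4 h replicate 2 stood apart from the other 4 by width, with a median peak width of 2190 bp over the whole list, against 81 to 110 bp. Its median maximum signal was 53 on its own scale, and those of the others were 285 to 528 on theirs. That list decided many of the counts that follow: without it the merging left 148 regions in place of 325.

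Calls differed widely between the libraries. Of the 325 regions, 31 were called after clampRNAi, where 21.0% of all 2263 regions were called. In the 2-4 h controls 21 were called in replicate 1, where 15.7% of all regions were called, and 275 in replicate 2, where 70.2% were. In the 0-2 h controls 46 were called in replicate 1, against a background of 30.8%, and 120 in replicate 2, against 54.0%. As a share of each list's own regions, the pericentromeric and chromosome 4 regions made up 6.51% after clampRNAi, 5.90% and 17.3% in the 2-4 h controls, and 6.59% and 9.83% in the 0-2 h controls. The 4 lists other than 2-4 h replicate 2 thus lay within 4 percentage points of each other, and that list stood above them.

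**Figure D1:**
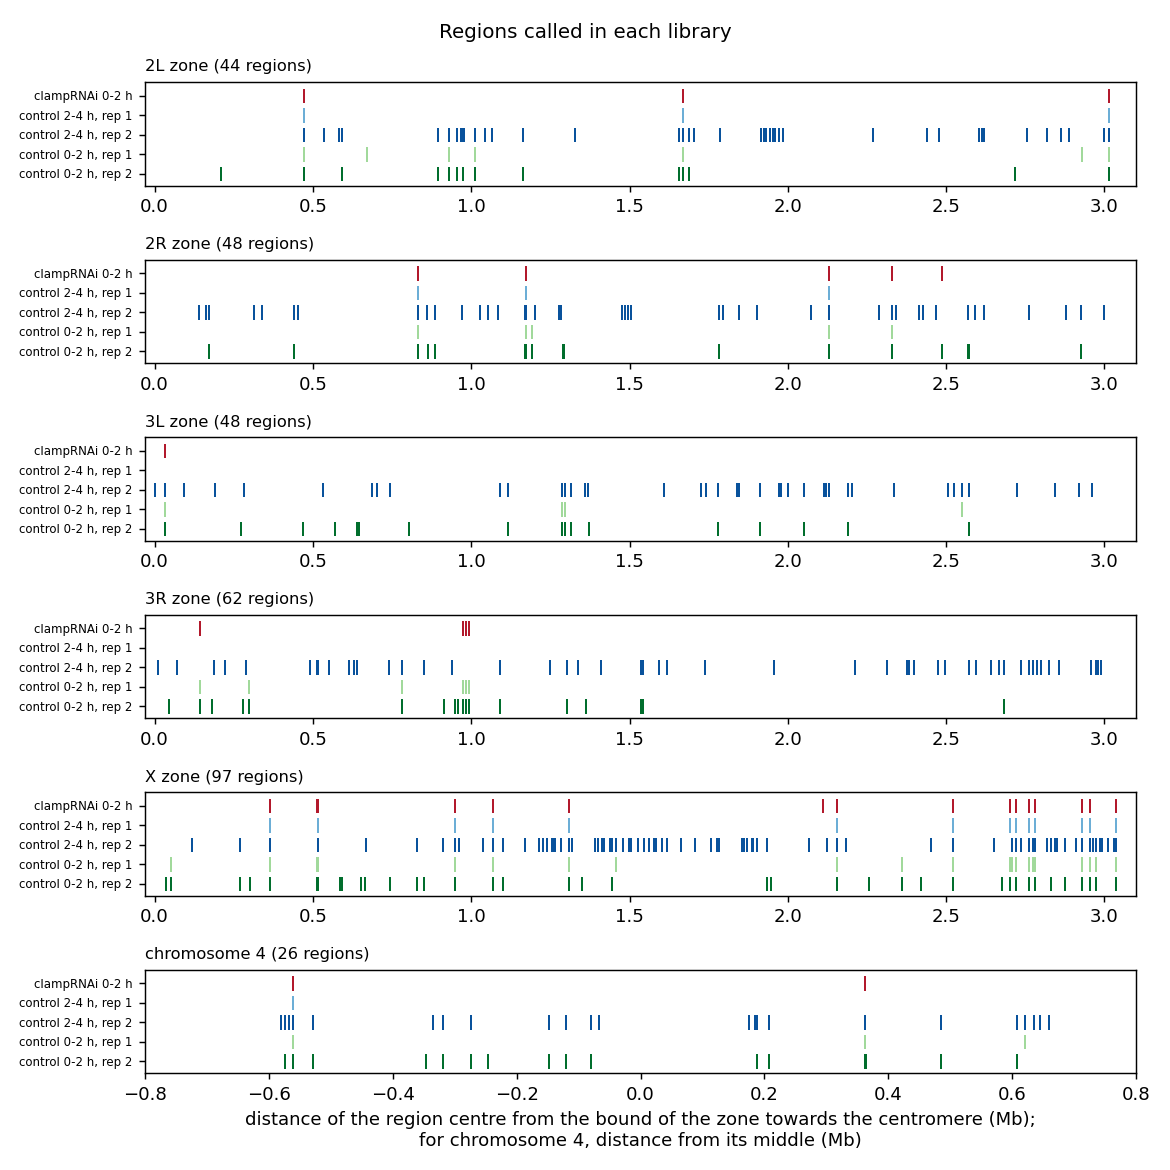
Position of the 325 regions in each zone, 1 row per library and 1 tick per called region; the horizontal axis is the distance in Mb of the region's centre from the bound of the zone towards the centromere, or from the middle of chromosome 4. The row of control 2-4 h replicate 2 is filled along every zone, while 2-4 h replicate 1 has no tick on 3L or 3R and the ticks shared by all 5 rows are mostly on X.

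Peaks here were wide beside those on the rest of the main arms. Their median width was 656 bp after clampRNAi, 563 bp and 3826 bp in 2-4 h replicates 1 and 2, and 564 bp and 502 bp in 0-2 h replicates 1 and 2. On the rest of the main arms the medians were 74 bp after clampRNAi, 76 bp and 2264 bp in the 2-4 h controls, and 77 bp and 86 bp in the 0-2 h controls. The pericentromeric median was therefore 8.86 times the other one after clampRNAi, 7.41 and 1.69 times in the 2-4 h controls, and 7.32 and 5.84 times in the 0-2 h controls. All 5 libraries went the same way, with a mean log2 ratio of 2.44 (5.44-fold as a geometric mean; exact two-sided sign-flip permutation test over 5 libraries, p = 0.063). That is the smallest p that 5 libraries allow, so the test could not pass the threshold of 0.05.

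Merged across lists, the regions had a median width of 3286 bp, against 634 bp for the other main-arm regions. Widths under 200 bp were found in 28 of 325 (8.62%), against 439 of 1417 (31.0%), and widths of at least 10 kb in 17, against 3. These merged widths rest largely on 2-4 h replicate 2, which alone called 197 of the 325. The widest single peak in the territory was 1658 bp after clampRNAi, 2100 bp in 2-4 h replicate 1, and 3581 and 5528 bp at 0-2 h. The widest peaks of these 4 whole lists lay outside the main arms. They measured 14003 bp after clampRNAi, 7200 bp in 2-4 h replicate 1, and 14135 and 23083 bp at 0-2 h. Great width was thus not particular to these zones. The widest merged region of the territory was 57985 bp, the width of its 2-4 h replicate 2 peak. It lay over the histone genes (2L, 21481475 to 21539459). Among the widest of the other zones were an X region of 36555 bp (23358129 to 23394683) and a region of 12438 bp on 2R (233279 to 245716), neither of which overlapped a protein-coding gene. The widest region of 3R measured 10322 bp and lay inside Myo81F, that of 3L measured 9207 bp and that of chromosome 4 measured 5912 bp.

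**Figure D2:**
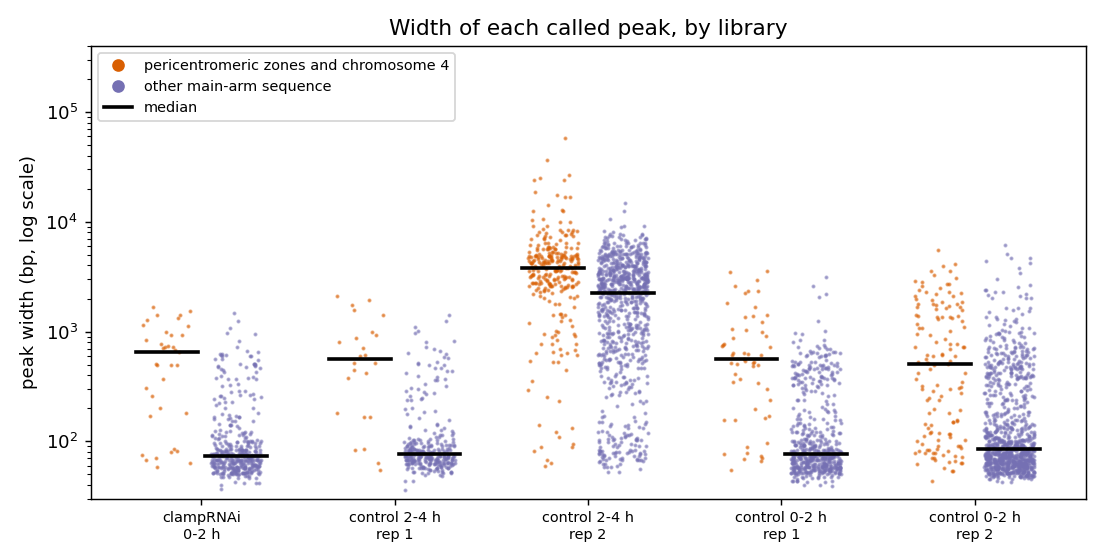
Width in bp (log axis) of each called peak on the main arms, 1 point per peak, in the pericentromeric zones and chromosome 4 (left of each pair) and in the other main-arm sequence (right), with black bars at the medians. In 4 libraries most peaks outside the zones sit near 70 to 90 bp and the zones hold few of these, with medians of 502 to 656 bp; in 2-4 h replicate 2 both sets are broad, with medians of 3826 bp and 2264 bp.

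How dense the peaks were depended on which widths were counted. Counting all widths, the territory held 2.27 peaks per Mb after clampRNAi, 1.47 and 16.8 in the 2-4 h controls, and 3.37 and 8.39 in the 0-2 h controls. The other main-arm sequence held 3.37 per Mb after clampRNAi, 2.60 and 7.04 at 2-4 h, and 4.60 and 8.03 at 0-2 h. The ratio of the densities lay below 1 in 3 libraries (0.672 after clampRNAi, 0.566 in 2-4 h replicate 1 and 0.732 in 0-2 h replicate 1) and above it in the replicates 2 (2.39 at 2-4 h and 1.04 at 0-2 h). Over the 5 libraries the mean log2 ratio was -0.10 (exact sign-flip permutation p = 0.8125), and it was positive when clampRNAi (0.0125) or 2-4 h replicate 1 (0.0744) was left out.

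Peaks of at least 200 bp were denser in the territory in every library, by 3.18 times after clampRNAi, 2.84 and 2.61 times at 2-4 h, and 2.34 and 2.46 times at 0-2 h (mean log2 ratio 1.42, exact sign-flip permutation p = 0.063, the smallest possible). For narrower peaks, a split added after the data had been seen, the ratios were 0.215 after clampRNAi, 0.192 and 0.783 in the 2-4 h controls, and 0.243 and 0.522 in the 0-2 h controls (mean log2 ratio -1.59, exact p = 0.063). In all 5 libraries the wide peaks were thus denser, and the narrow ones sparser, than on the rest of the main arms. The split at 200 bp uses the widths already compared above, so it is not a separate result.

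**Figure D3:**
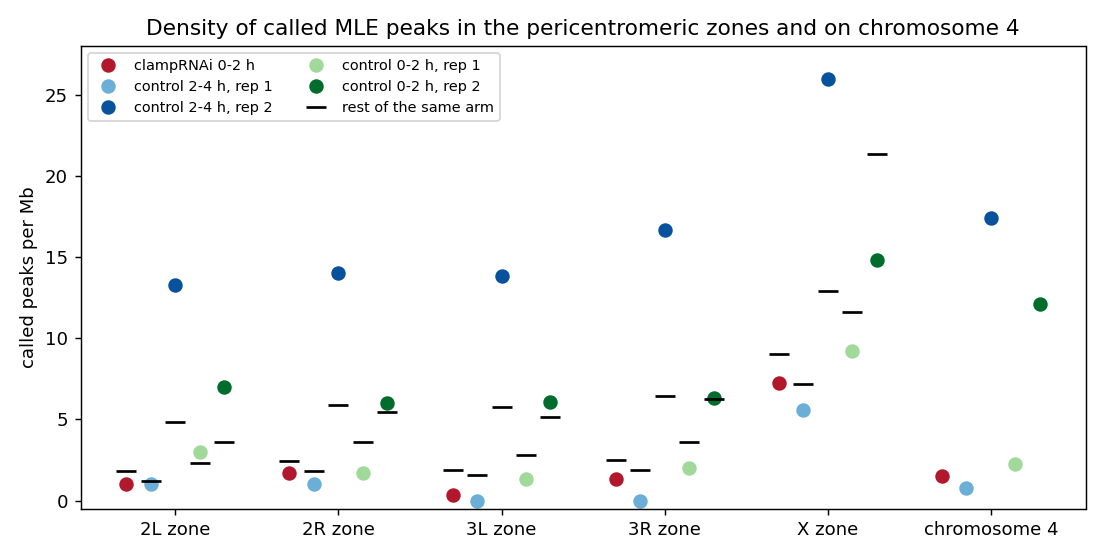
Called peaks per Mb in each pericentromeric zone and on chromosome 4, 1 point per library in the order of the legend, with black bars for the rest of the same arm in that library. The points of 2-4 h replicate 2 lie at 13.3 to 26.0 per Mb, above their bars in all 5 zones that have one, and those of clampRNAi and 2-4 h replicate 1 lie below their bars.

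Density also differed between zones. On the X zone there were 7.24 peaks per Mb after clampRNAi, 5.59 and 26.0 in the 2-4 h controls, and 9.21 and 14.8 in the 0-2 h controls. The rest of X held 9.02 per Mb after clampRNAi, 7.17 and 12.9 at 2-4 h, and 11.6 and 21.4 at 0-2 h. The X zone was therefore less dense than the rest of its arm in 4 libraries and denser in 2-4 h replicate 2. On 3L and 3R no peak of 2-4 h replicate 1 was called in the zones, which span 2.96 and 3 Mb. The rest of these arms held 1.55 and 1.86 peaks per Mb in that list. The clampRNAi list had 1 region in the 3L zone and 4 in the 3R zone, or 0.338 and 1.33 peaks per Mb. The rest of these arms held 1.87 and 2.51 per Mb after clampRNAi.

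Signal ranks were not high as a group. By total signal (summed coverage of a peak), the median within-list percentile of the pericentromeric and chromosome 4 peaks was 37.6 after clampRNAi, 53.5 and 47.6 in the 2-4 h controls, and 56.0 and 51.2 in the 0-2 h controls. The other main-arm peaks had medians of 50.8 after clampRNAi, 49.5 and 38.0 at 2-4 h, and 49.5 and 51.5 at 0-2 h. The mean difference of 1.37 percentile points was higher in 3 of 5 libraries (exact sign-flip permutation p = 0.75), and without 2-4 h replicate 2 it was -0.70.

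By maximum signal (the highest coverage inside a peak) the same peaks ranked low in every list. The median percentile was 12.4 after clampRNAi, 19.2 and 31.1 in the 2-4 h controls, and 25.2 and 24.7 in the 0-2 h controls. Other main-arm peaks had 57.2 after clampRNAi, 56.5 and 43.5 at 2-4 h, and 59.96 and 56.9 at 0-2 h. The mean difference was -32.3 percentile points, negative in 5 of 5 libraries (exact sign-flip permutation p = 0.063, the smallest possible). With all zones pooled, a typical peak was thus wide and low. Its median maximum was 89 after clampRNAi, 289.5 and 22 in the 2-4 h controls and 155 and 153 in the 0-2 h controls. These scales cannot be compared between lists. Chromosome 4 peaks of the replicates 2 departed from this description. Their median width was 1363 bp at 2-4 h and 153.5 bp at 0-2 h. Their median percentile of total signal was 77.6 and 87.1 in the same order.

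Few of the regions recurred. Of the 325, 236 were called in 1 list, 54 in 2, 11 in 3, 4 in 4 and 20 in all 5, or 6.15% against a background of 12.1% of all regions. Those in 2-4 h replicate 2 alone numbered 197, or 60.6% against a background of 41.5%. They were broad and low, with a median width of 4290 bp and a median maximum signal of 19, and 194 of them spanned more than 2 kb. The 6 of highest rank were all on X, 7650 to 23964 bp wide, at percentiles of 89.6 to 91.2 with maxima of 24 to 104; 1 of them overlapped an rRNA pseudogene and the others no gene. The 36 called in 0-2 h replicate 2 alone (11.1%, background 15.7%) had a median width of 316.5 bp. Only 1 region, of 1545 bp inside Cda4, a chitin deacetylase-like gene of X, was called after clampRNAi and in no control (background 0.0442%), at a percentile of 2.03.

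The 20 regions called in every list comprised 13 on X, 3 on 2L, 3 on 2R and 1 on chromosome 4, and none on 3L or 3R. Of these, 6 overlapped a protein-coding gene, 4 a non-coding gene only and 10 no gene. The positions of their maxima agreed closely, with a median spread of 5 bp over the 5 lists, and in 14 of 20 the spread was within 50 bp. In 5 of the 20 the peak had nearly the same width in the 4 lists other than 2-4 h replicate 2 (the widest under 1.1 times the narrowest), and in 12 the 2-4 h replicate 2 peak was at least 2 times as wide as any other.

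On 2R a region 14651 bp from CG46302 (870222 to 871655) had the second highest mean percentile of the 20. It ranked at 96.2 after clampRNAi, 94.3 and 90.1 in the 2-4 h controls, and 97.2 and 91.3 in the 0-2 h controls. The peak was 373 bp wide after clampRNAi, 374 and 1430 bp at 2-4 h, and 372 and 368 bp at 0-2 h. It thus stood at a percentile of at least 90.1 in every library, with maxima spread over 5 bp.

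A further 2R region, 39386 bp from CG17684 (1825693 to 1826694), was a block of constant width. It measured 996 bp after clampRNAi, 998 and 1000 bp in the 2-4 h controls, and 998 and 1002 bp in the 0-2 h controls. Its percentile was 79.9 after clampRNAi, 67.8 and 92.2 at 2-4 h, and 91.6 and 82.3 at 0-2 h, with maximum signals of 69, 73, 353, 202 and 132 in the same order. The last called peak of 2L (23512785 to 23513712), which reached the last position seen on that arm, was a similar block of 927 bp after clampRNAi, 866 and 925 bp at 2-4 h, and 919 and 924 bp at 0-2 h.

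Clamp itself, the gene whose product was depleted, carried a region called in all 5 lists (2L, 22166080 to 22168677). Called peaks covered 48.4% of the gene after clampRNAi, 50.9% and 75.9% in the 2-4 h controls, and 47.6% and 18.1% in the 0-2 h controls. The strongest of these peaks ranked at 99.8 after clampRNAi, 95.1 and 63.4 in the 2-4 h controls, and 98.3 and 81.7 in the 0-2 h controls. The coverage after clampRNAi lay inside the range of the controls and the rank above all 4 of them. Ranks from lists of different length cannot show whether the signal changed. Since the hairpin targets this gene and peaks do not measure its RNA, the depletion was not checked here.

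Several leading X regions lay inside or close to protein-coding genes. The region inside DIP-beta, which encodes an immunoglobulin-domain cell surface protein that binds Dpr partners, ranked at 89.3 after clampRNAi, 85.1 and 87.7 in the 2-4 h controls, and 92.5 and 90.7 in the 0-2 h controls (21449151 to 21450052). Near zyd, which encodes an ion exchanger of glia, a region 1048 bp from the gene (23019817 to 23021850) ranked at 92.1 after clampRNAi, 87.0 and 91.8 at 2-4 h, and 95.02 and 89.7 at 0-2 h. Its width was 1404 bp after clampRNAi, 1405 and 2031 bp at 2-4 h, and 1397 and 1400 bp at 0-2 h. Inside shakB, a gap junction gene, the region ranked lower, at 60.5 after clampRNAi, 49.7 and 53.7 at 2-4 h, and 71.2 and 77.7 at 0-2 h.

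Between genes, the X regions at 21567418 to 21569099 (31403 bp from GCS2alpha, which encodes a glucosidase subunit) and at 21016007 to 21016984 (6406 bp from r-cup) had mean percentiles of 94.0 and 90.5, the first being the highest of the 20. The GCS2alpha neighbour had maximum signals of 2896 after clampRNAi, 4341 and 4307 in the 2-4 h controls, and 5462 and 8198 in the 0-2 h controls. That near r-cup had 1809 after clampRNAi, 2404 and 3093 at 2-4 h, and 3267 and 5636 at 0-2 h. Neither fell below a percentile of 87 in any list.

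**Figure D4:**
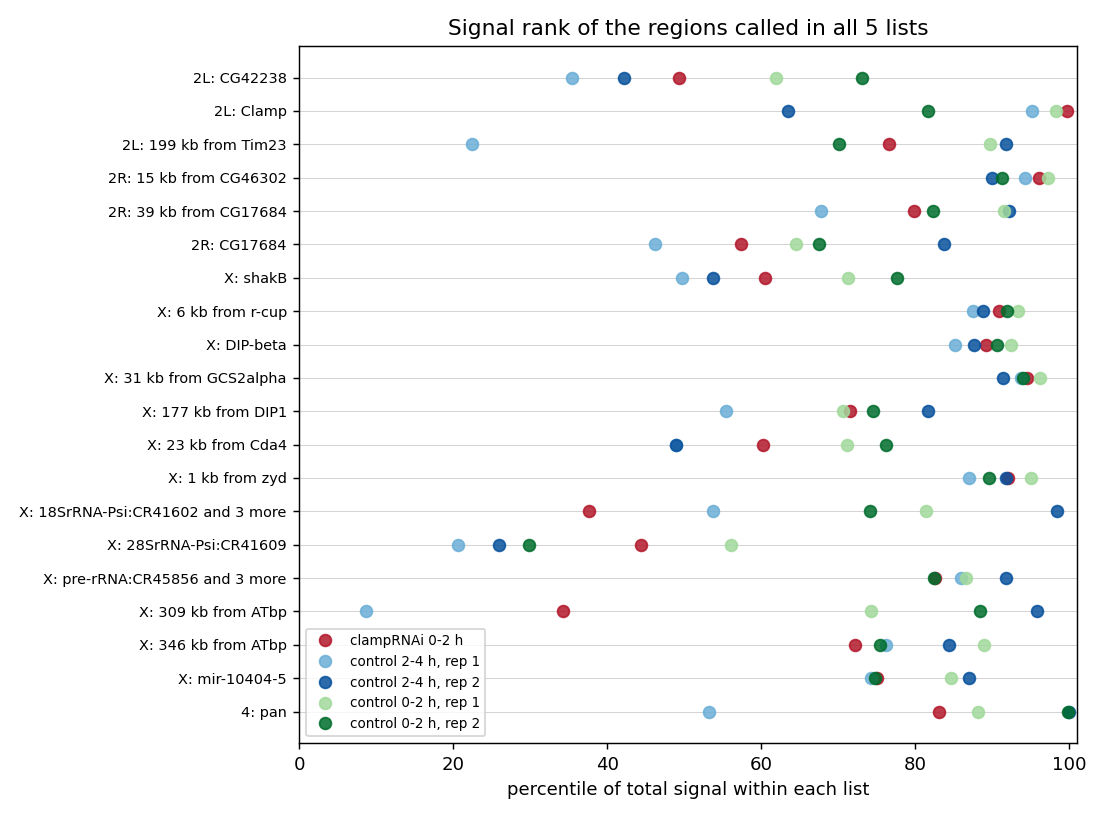
Percentile of total signal within each list for the 20 regions called in all 5 lists, 1 row per region and 1 point per library, named by the overlapped gene or the distance to the nearest protein-coding gene. Rows such as those near r-cup and zyd and in DIP-beta are tight, between 85 and 96, and the pan and X-end rows are spread, with pan above 99 in both replicates 2 and at 53.2 in 2-4 h replicate 1.

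Another 4 regions were called in 4 lists. Inside DIP-lambda (2R, 669374 to 669991) the percentile was 4.87 after clampRNAi, 98.0 in 2-4 h replicate 2, and 12.2 and 98.1 in the 0-2 h controls, with no call in 2-4 h replicate 1. The PlexA region (4, 1021028 to 1022114) ranked at 3.25 after clampRNAi, 87.1 in 2-4 h replicate 2, and 21.4 and 86.9 at 0-2 h. Both were thus among the lowest peaks of some lists and high in the replicates 2. At 3601 bp from UQCR-11, a gene of respiratory complex III, the 3L region called in most lists (25129772 to 25135071) ranked at 29.0 after clampRNAi, 95.1 in 2-4 h replicate 2, and 84.1 and 61.6 at 0-2 h. The last of them overlapped an rRNA pseudogene of X and was missed by 2-4 h replicate 2 alone.

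On 3R, where none was called in more than 3 lists, 3 regions inside Myo81F between 2005914 and 2025288 were called after clampRNAi and in both 0-2 h controls, with no call at 2-4 h. They ranked low, at 0.406 to 18.1 after clampRNAi, and at 0.553 to 8.71 and 33.2 to 45.3 in the 0-2 h controls. A further Myo81F region, at 2217870 to 2219325, was not called after clampRNAi or in 2-4 h replicate 1, and ranked at 99.7 in 2-4 h replicate 2, and at 28.9 and 99.5 in the 0-2 h controls.

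The end of X, from the ribosomal RNA genes to the last position seen (23200802 to 23539931, 339.1 kb), held 22 of the 97 X regions. Called peaks covered 2.72% of it after clampRNAi, 2.85% and 57.4% in the 2-4 h controls, and 5.73% and 7.69% in the 0-2 h controls. Its annotated stretch of 17 rRNA genes and pseudogenes (23200802 to 23291729) was covered to 7.29% after clampRNAi, 7.46% and 47.9% at 2-4 h, and 16.2% and 14.7% at 0-2 h. Of the 17, 7 overlapped a peak after clampRNAi, 7 and 11 at 2-4 h, and 8 and 7 at 0-2 h. A last region of X, over mir-10404-5 (23534021 to 23539931), ranked at 75.1 after clampRNAi, 74.3 and 87.0 at 2-4 h, and 84.7 and 74.8 at 0-2 h. The rRNA copies are nearly identical, so which copy a fragment came from is uncertain.

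The histone gene cluster showed the widest gap between libraries. Its 111 genes encode the core histones and the linker histone H1, and they span 124.7 kb of 2L (21416953 to 21541681). Called peaks covered none of it after clampRNAi, none in 2-4 h replicate 1 and 97.0% in 2-4 h replicate 2, and 6.86% and 20.4% in the 0-2 h controls. The number of histone genes with a peak was 0 after clampRNAi, 0 and 111 in the 2-4 h controls, and 11 and 32 in the 0-2 h controls. Maxima there ran from 35 to 66 in 2-4 h replicate 2, 10 to 20 in 0-2 h replicate 1 and 7 to 15 in 0-2 h replicate 2. The median maxima of those whole lists were 53, 388 and 309 in the same order. The repeats are nearly identical, and counts of single copies are uncertain for that reason.

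At flamenco (flam, a non-coding locus that yields piRNAs against transposons in ovarian follicle cells; X, 21631891 to 21790731), 8 regions were called, all in 2-4 h replicate 2 alone. They covered 27.7% of its 158.8 kb, with maxima of 13 to 62. In the other 4 lists none of it was covered, and at unknown depth this does not show that signal was absent there.

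**Figure D5:**
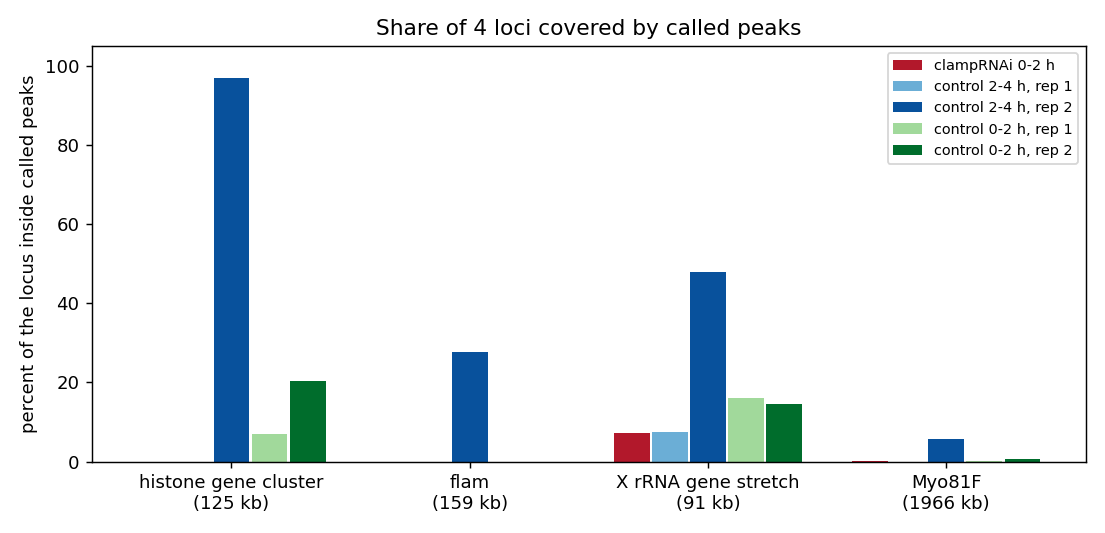
Share of 4 loci (percent of their length) inside called peaks, 1 bar per library. In 2-4 h replicate 2 the bars reach 97.0% at the histone cluster, 27.7% at flam, 47.9% at the X rRNA stretch and 5.72% at Myo81F, and no other library exceeds 20.4% at any of them.

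The genes with most regions were very long. Myo81F, a myosin heavy chain gene of 1966 kb on 3R (567076 to 2532932), held 34 of the 62 regions of its zone. Of these, 3 were called after clampRNAi, 0 and 27 in the 2-4 h controls, and 4 and 12 in the 0-2 h controls. Next came DIP-lambda, a paralogue of DIP-beta, with 10 regions on 2R, and Pzl, a Piezo-like channel gene, with 10 on 3R. CG17684 held 8 and lovit, which encodes a histamine transporter of photoreceptors, held 6. The 4 protein-coding genes with most regions held 62 of the 325 between them. Per length, Myo81F held 1.73 regions per 100 kb, DIP-lambda 2.64, CG17684 2.02 and lovit 1.38, against 1.99 over the whole territory.

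Over all, 159 of the 325 regions (48.9%) overlapped an annotated gene, against 76.9% of the other main-arm regions. Genes covered 52.3% of the bases of the territory and 71.9% of those of the rest of the arms. A protein-coding gene was overlapped by 139, a non-coding gene alone by 20, and 166 overlapped none. Those 166 lay at a median of 57068 bp from the nearest protein-coding gene, and 89 of them lay more than 50 kb away. The regions touched 166 protein-coding genes, of which 111 were histone genes and 55 others.

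Of 26 genes in the zones on a list of pericentromeric genes, 10 overlapped a peak in any list, or 38.5%, flam included. Of all 13922 protein-coding genes of the main arms 7.63% did, and of all 440 protein-coding genes of the pericentromeric zones 34.5% did, or 12.5% of the 329 that are not histone genes. The genes of the list with a peak numbered 3 after clampRNAi (background 1.88% of coding genes), 2 and 10 in the 2-4 h controls (1.52% and 5.85%), and 3 and 5 in the 0-2 h controls (2.54% and 4.01%). Length goes with these counts: the 10 genes had a median length of 37970.5 bp and the list as a whole 16972 bp. Protein-coding genes of the rest of the main arms had a median of 2159 bp.

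Clamp and Pzl had a peak in all 5 lists (at Pzl, which runs past the bound on 3R, that of 2-4 h replicate 1 lay beyond it), and Myo81F in all but 2-4 h replicate 1. Dbp80, which encodes a DEAD-box helicase of mRNA export, and vtd, which encodes the cohesin subunit Rad21, had peaks in both replicates 2 and no other list. The other 5 had a peak in 2-4 h replicate 2 alone. These were lt (light, the vacuolar sorting protein Vps41), rl (rolled, the ERK kinase), tsh (a homeotic zinc finger gene), Maf1 (a repressor of RNA polymerase III) and flam. The classical heterochromatic genes lt and rl were thus without a call in 4 of 5 lists. In those 4 lists 1.52% to 4.01% of all protein-coding genes had a peak, so no call was the usual outcome for a gene. The single peaks of lt and rl in 2-4 h replicate 2 ranked at percentiles of 17.94 and 40.15, with maxima of 24 and 43.

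Chromosome 4 was called mainly by the replicates 2. Its 26 regions were called 2 times after clampRNAi, 1 and 23 times in the 2-4 h controls, and 3 and 16 times in the 0-2 h controls, where 21.0%, 15.7%, 70.2%, 30.8% and 54.0% of all regions were called in the same order. Peaks overlapped 14 of its 80 protein-coding genes (17.5%) in any list, against 7.63% of all protein-coding genes. By library that was 2.5% of the 80 after clampRNAi (all protein-coding genes 1.88%), 1.25% and 17.5% in the 2-4 h controls (1.52% and 5.85%), and 2.5% and 11.3% in the 0-2 h controls (2.54% and 4.01%). The 14 genes had a median length of 22147.5 bp, against 9127.5 bp for the other chromosome 4 genes. All 80 had a median of 10090 bp, against 2159 bp for protein-coding genes of the rest of the main arms. The shares above thus compare genes of unlike length. Median percentiles of chromosome 4 peaks were high in both replicates 2, at 77.6 in the 2-4 h list and 87.1 in the 0-2 h list. They were 43.2 after clampRNAi, 53.2 in 2-4 h replicate 1 and 23.5 in 0-2 h replicate 1, from the few peaks called there.

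Of 15 transcription factor genes of chromosome 4, 5 (33.3%) had a peak in any list, against 17.5% of all its protein-coding genes: pan in all 5, zfh2 and dati in both replicates 2, and Sox102F and fd102C in 2-4 h replicate 2 alone. Of 21 neuronal and signalling genes, 5 (23.8%) had one. The genes with a peak were longer on both lists, with medians of 33958 bp against 9246 bp and 30725 bp against 11434.5 bp. The whole lists had medians of 18198 bp and 11787 bp, against 10090 bp for all chromosome 4 protein-coding genes. PlexA, a semaphorin receptor gene, was called in all lists but 2-4 h replicate 1. Cadps (dense-core vesicle release), Ephrin (the ligand of the Eph receptor) and PMCA (a calcium pump of the cell membrane) were called in both replicates 2, and unc-13, a synaptic vesicle priming gene, in 2-4 h replicate 2 alone.

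Inside pan, which encodes the TCF factor of Wnt signalling, lay the chromosome 4 region called in every list (98119 to 98648). The peak was 499 bp wide after clampRNAi, 520 and 527 bp in the 2-4 h controls, and 521 and 530 bp in the 0-2 h controls, with maxima within 5 bp. The maximum signal was 181 after clampRNAi, 126 and 257999 at 2-4 h, and 356 and 243892 at 0-2 h. Its percentile was 83.2 after clampRNAi, 53.2 and 99.9 at 2-4 h, and 88.2 and 99.9 at 0-2 h. The same interval was thus called everywhere, and it stood at the top of the list in the replicates 2 and not in the others.

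Some peaks of high rank were called in the replicates 2 only. In all, 44 regions were called in both replicates 2 and in no other list (13.5%, background 11.1%), and 18 of these ranked above percentile 80 in both. Among all regions the same description held for 90 of 252. Chromosome 4 held 8 of the 18, in pan, anne, PMCA, dati, zfh2 (at 2 places), Ephrin and Cadps, and others lay in Dbp80, vtd, CG41378, CG2225, tty and GCS2alpha. These 18 were chosen after their values had been seen and were not tested.

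At PMCA (4, 341337 to 341881) the maximum signal was 47206 at 2-4 h and 45045 at 0-2 h, at percentiles of 98.99 and 98.96. For Cadps (4, 1266525 to 1267887) the percentiles were 98.8 at 2-4 h and 98.7 at 0-2 h. At Dbp80 (3L, 27289074 to 27289215) the maxima were 8417 at 2-4 h and 8326 at 0-2 h, in peaks of 142 bp and 140 bp. In the second zfh2 region, where the gene overlaps Tdg (4, 540061 to 540363), they were 13363 at 2-4 h and 12923 at 0-2 h. High rank at both ages and no call in the other lists were the terms by which these peaks were chosen. Neither is therefore a separate result.

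Called regions were also compared between clampRNAi and the 0-2 h controls, which bears on whether MLE in these zones needed maternal CLAMP. Both 0-2 h controls shared 39 calls in these zones, and the clampRNAi list held 29 of them, or 74.4% (Clopper-Pearson 95% interval 57.9% to 87.0%), against 76.6% of all 602 such regions and 81.2% of the 473 on other main-arm sequence. The interval holds both of those shares and covers counting error over regions only. Of the same 39, control 2-4 h replicate 1 called 21 (53.8%, against 57.6% of all 602) and replicate 2 called 29 (74.4%, against 60.6%). By zone, 15 of 18 were called after clampRNAi on X (83.3%, interval 58.6% to 96.4%) and 14 of 21 on the autosomes (66.7%, interval 43.0% to 85.4%). These intervals overlap, which does not show that the shares agree. With 1 clampRNAi library there was no test between conditions.

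In the other direction, 30 of the 31 regions called after clampRNAi were called in a 0-2 h control, against 99.4% of all 476 such regions. The 10 that were not called after clampRNAi but were in both 0-2 h controls included both wide histone regions, the neighbours of CG42598 on 3L and regions inside Myo81F, Pzl, RunxB (a Runt-family factor gene) and CG42346. Their median percentiles in the 0-2 h controls were 24.5 and 47.0, while the 29 that were called had 74.3 and 75.5. Of the 10, 0 and 6 were called in the 2-4 h controls. The share rests on which 0-2 h list defines it: it was 25.0% of the 120 regions of replicate 2 and 63.0% of the 46 of replicate 1.

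Between embryo ages, the share of a library's regions that lay in this territory was 11.6% ± 8.07 at 2-4 h and 8.21% ± 2.29 at 0-2 h (SD, n = 2 each). The difference of 3.39 percentage points was smaller than the spread between the 2-4 h replicates (exact two-sided permutation p = 1; the smallest p that 2 against 2 libraries allow is 0.33). Between same-numbered libraries, which the labels do not tie, the difference was -0.69 points for replicate 1 and 7.48 points for replicate 2, so its sign was opposite. Without 2-4 h replicate 2 it was -2.31 points. Of the replicate 1 regions, 0 were found only in the older embryos, 25 only in the younger ones and 21 in both. Of the replicate 2 regions, 202 were found only in the older embryos, 47 only in the younger ones and 73 in both. Over all regions the counts in that order were 7, 349 and 349 in replicate 1 and 969, 601 and 620 in replicate 2, so the zones followed the whole lists in direction. Counting over replicates, 0 regions were shared by the 2-4 h controls and missing from both 0-2 h lists, and 9 showed the reverse pattern, against 0 and 165 (7.29%) of all 2263 regions.

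At the bounds of the rule, the nearest region inside the X zone was a 66 bp region 2165 bp from RunxB, called in 1 list, and the nearest outside was inside RhoGAP19D, 2340 bp from the bound, called in all 5 lists. On 3L the nearest regions inside and outside lay 898 bp and 47283 bp from the bound, and on 2L 210072 bp and 54622 bp. On 2R they lay 143606 bp and 1983 bp from it and on 3R 11326 bp and 8830 bp, the last pair both inside Pzl. All of these but the RhoGAP19D region were called in 1 list.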

How the data were processed

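Each of the 5 libraries had 1 deposited peak list, in the layout of SEACR, with the authors' total signal and maximum signal (summed and highest coverage) per peak. Per the submitters' processing notes the tools were SEACR 1.3, Bowtie2 2.4.4, Trimmomatic 0.40, bcl2fastq 2.17 and deepTools, on dm6. Nothing in the sources used here gives the control track, the threshold, spike-in scaling or the treatment of fragments that match several places. Read depth is unknown, so no interval covers it. Signal was ranked within a list only. Reads lack molecular identifiers, so they are not independent molecules, and intervals cover counting error over regions only.

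Peaks sharing at least 1 bp were merged with Python 3.11.15, pandas 2.3.3 and numpy 2.4.6. A region found in several lists took its strongest peak in each. RefSeq gene extents on Release 6 plus ISO1 MT (dm6) were used, and arm lengths were the largest coordinate seen. Sequence and motifs were not used here. Tests were exact permutations over libraries, with a threshold of 0.05: 2-4 h against 0-2 h by group labels, and zones against the rest of the arms by sign flips over the 5 libraries. Both were tested on simulated data. In the gene lists klhl10, Hsp60 and Caps were not matched. Named regions were, per zone, the 5 called in most lists and the widest, the leading ones of the sets not called after clampRNAi or called in 2-4 h replicate 2 alone, and every listed gene with a peak, and others were chosen after their values were seen. The members and the lists were chosen with earlier results of these data known. Coordinates are 1-based.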

Additional observations from a re-analysis of the deposited data

How the results depend on the processing

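Of 56 alternatives, 44 left the result on the same side. The width ratio kept its direction in all, with mean log2 ratios of 2.27 to 2.86 when 1 library was left out. The density ratio (mean log2 -0.10) became 0.0025 with the 370 peaks of highest total signal per list and 1.42 with peaks of at least 200 bp, and ran from -0.445 to 0.0744 when 1 library was left out, positive without clampRNAi (0.01) or without 2-4 h replicate 1 (0.0744). The percentile difference (1.37 points) became -32.3 by maximum signal and ran from -0.70, without 2-4 h replicate 2, to 5.00. The stage difference ran from -2.31, without 2-4 h replicate 2, to 9.10 points. With the replicate number as a block it was 3.39 points (exact permutation p = 1, smallest possible 0.5). The labels do not tie same-numbered libraries. The replicate differences in calls at the 2 ages correlated at r = -0.09 over 2263 regions and -0.29 over the 325, although 252 regions were called in both replicates 2 and no other list. These correlations leave out sequence called in no list, which pushes r down, so they cannot decide whether the libraries were paired. With the numbers crossed, 21 regions were called at both ages in one pair and 34 in the other. The share called after clampRNAi was 89.5% (17 of 19) with 370 peaks per list, and 25.0% to 63.0% when a 0-2 h control was left out. The number of regions was 77 with 370 peaks and 148 to 325 when 1 library was left out, 148 without 2-4 h replicate 2, and those called in every list numbered 13 and 20 to 23. Shorter lists and fewer lists give fewer regions by construction; the cause of the other shifts was not tested. Limits: depth and any control track are unknown, a region not called is not shown to lack MLE, and repeats cannot be resolved to copies.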

Other observations

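In 0-2 h replicate 2, peaks overlapped 9 of 20 His2A and 9 of 23 His2B genes, 7 of 23 His1, 4 of 22 His4 and 3 of 23 His3 genes. These 32 genes lay under 11 peaks over near-identical repeats. The genes are therefore not independent counts, and the copy each fragment came from is uncertain. The difference between types was not tested. In 0-2 h replicate 1 each type had 2 or 3 genes with a peak, and in 2-4 h replicate 2 all had one.

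Of 21 regions called in 2-4 h replicate 1, all were called in both 0-2 h controls and after clampRNAi, and 20 (95.2%) in 2-4 h replicate 2. Of the 302 other main-arm regions of that list, 98.7% were called in each 0-2 h control, 98.3% after clampRNAi and 74.8% in 2-4 h replicate 2.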
